A study of Mus musculus with 2 samples.

Results

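The cells described here are macrophages of mouse mammary tumours that carry much Spp1 RNA together with Gpnmb RNA. A cell was taken if Spp1 made up at least 0.4% of its unique molecular identifiers (UMIs, each standing for 1 captured RNA molecule) and Gpnmb gave at least 2 UMIs. Its barcode also had at least 2000 UMIs and at most 10% of them from mitochondrial genes. Cells with 3 or more UMIs of the epithelial genes Epcam, Krt8 and Krt18, or of the cycling genes Top2a, Birc5, Ube2c and Cdk1, were left out. This gave 88 of 3173 cells, with 68 of 1958 (3.47%, exact 95% binomial interval 2.71% to 4.38%) in replicate 1 and 20 of 1215 (1.65%, 1.01% to 2.53%) in replicate 2. They are called Spp1/Gpnmb cells below.

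Spp1 encodes osteopontin, a secreted protein of bone and of inflamed tissue that binds CD44 and several integrins. Gpnmb encodes a transmembrane glycoprotein of lysosomes and melanosomes that macrophages make when they are loaded with lipid or cell debris. Macrophages with Trem2, a receptor for lipids and apoptotic cells, Fabp5, a fatty acid carrier, and lysosomal genes are known as lipid-associated macrophages. Spp1-rich macrophages of tumours are often found in poorly oxygenated areas, where the factor HIF-1 switches on enzymes of glycolysis and other target genes.

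The study sequenced single cells picked for CD11c out of tumours of PyMT mice, in which the polyoma middle T oncogene drives mammary cancer, on the C57BL/6N strain. CD11c is the integrin encoded by Itgax, which dendritic cells and many macrophages carry. Both samples were labelled WT and myeloid cells, with no treatment, age or other group in the labels, and nothing said whether they came from separate mice. All p-values therefore measure how far the differences between sets of cells, described below, varied over 2 libraries. This spread may be technical. The libraries held 17369071 and 13317214 UMIs, and the cells kept had a median of 5614.5 and 7248 UMIs. The libraries shared 2 of the cell barcodes kept, and none of these was a Spp1/Gpnmb cell.

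Since there was no second group of samples, Spp1/Gpnmb cells were compared with 3 other sets of cells from the same captures, each chosen by marker counts. C1q-high cells (688 and 483 cells) had at least 0.4% of UMIs from C1qa, C1qb and C1qc, the subunits of complement C1q that tumour macrophages make. Folr2-group cells (258 and 57) met that rule and also had at least 3 UMIs of Folr2, Cbr2, Cd209f, Cd209g, Cd163 and Lyve1, which mark resident tissue macrophages. Monocyte-marker cells (93 and 64) were below the C1q limit and had at least 4 UMIs of Ccr2, Fcgr4, Ms4a4c, Ly6c2 and Plac8. UMIs were summed per set and library and given as counts per 1000000 (CPM), scaled between sums by edgeR's TMM method in the comparisons and left unscaled in sums of markers and in shares of cells. The members gave sums of 683570 and 217343 UMIs, so 1 UMI stands for 1.42 CPM in replicate 1 and 4.82 CPM in replicate 2. No gene that chose any of the sets was tested, but the tested genes were measured in the same cells that were chosen.

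By the rule itself, Spp1 made up from 0.424% to 10.3% of the UMIs of a member in replicate 1, with a median of 2.00%. In replicate 2 it ranged from 0.841% to 6.89%, with a median of 3.66%. Gpnmb gave a median of 11.5 UMIs in replicate 1 and 18.5 in replicate 2, and 5 members had exactly 2. The members closest to the Spp1 limit had 0.424%, 0.432% and 0.469%, and the closest cells below it had 0.382%, 0.381% and 0.330%. A further 29 cells met the Spp1 limit but not the Gpnmb limit, with a median Spp1 share of 1.05%, and 33 met the Gpnmb limit with a median Spp1 share of 0.0720%. Free RNA, estimated from barcodes of 1 to 50 UMIs and scaled by epithelial markers, would give 0.00167% and 0.00207% of the members' UMIs as Spp1. Since members were chosen for few epithelial UMIs, this estimate may be too low and is not an upper limit. These values chose the cells and are given as a description.

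Markers placed the cells among macrophages. Lyz2, the lysozyme of macrophages and monocytes, was at 21153 and 22086 CPM in the members, against 10082 and 12039 CPM in C1q-high cells. Cd68, a lysosomal glycoprotein of macrophages, was at 1096 and 1267 CPM against 479.6 and 544.1 CPM. The members held C1q RNA, which chose the C1q-high cells, at a median of 0.811% and 0.970% of UMIs, against 1.29% and 1.51% in C1q-high cells. Of 10 T and NK cell markers, 9 were at 0 in replicate 1 and all 10 in replicate 2. Single monocyte markers went both ways. The 8 of the list summed to 580.8 and 860.4 CPM in the members, 534.4 and 317.6 CPM in C1q-high cells and 2116 and 2053 CPM in monocyte-marker cells. Ly6c2, a surface marker of inflammatory monocytes, was at 267.5 and 293.8 CPM in the members against 79.9 and 16.8 CPM in C1q-high cells. Ccr2 of the same list was lower, at 37.0 and 38.5 CPM against 160.3 and 146.7 CPM. Both genes chose the monocyte-marker cells and were not tested. The 4 markers of the list that chose no set summed to 21.9 and 96.6 CPM in the members. They summed to 4.48 and 2.89 CPM in C1q-high cells and to 56.3 and 66.5 CPM in monocyte-marker cells. Of these, Chil3 and Hp were called higher than in C1q-high cells, on 16 and 19 UMIs in the members. Their log2 fold changes were 3.95 (SE 0.80) and 4.52 (SE 0.93). The 9 neutrophil markers summed to 33.6 and 69.0 CPM, with 6 and 5 at 0. The 7 markers of mature dendritic cells summed to 2.93 and 32.2 CPM, with 5 and 4 at 0. The 10 epithelial markers outside the rule came to 196 and 230.1 CPM, against 260.7 and 190.3 CPM in C1q-high cells. Members were deeper, with a median of 9331.5 and 8964 UMIs per cell against 5030.5 and 6646 in C1q-high cells, and for some genes below shares of cells are therefore given after thinning every cell to 2000 UMIs. The part of depth in the other results was not tested.

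Clustering of all 3173 cells after removing the genes of the rule put 81 of the 88 members into 1 cluster of 138 cells, with 62 of 68 from replicate 1 and 19 of 20 from replicate 2. The genes that led this cluster were Ctsd, Fabp5, Trem2, Ctsb, Lgals3, Apoe, Capg, Bst2, Ctsl and Lgals1. Its other 57 cells were not members and included 24 C1q-high and 16 monocyte-marker cells. Their median Spp1 share was 0.275%, and their Fabp5 sum of 2381 CPM lay between that of the 81 members (5349 CPM) and of C1q-high cells outside the cluster (180.0 CPM). The 7 members outside the cluster had 2667 CPM of Fabp5, and 4 of them fell in a cluster where 152 of 180 cells were Folr2-group cells. These levels are a description, since Fabp5 was among the genes that formed the clusters.

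Of 6146 genes tested with edgeR's quasi-likelihood test on the summed counts, with the library as a block, 328 (5.34%) were higher in Spp1/Gpnmb cells than in C1q-high cells and 375 (6.1%) were lower at a Benjamini-Hochberg adjusted p under 0.05. Against Folr2-group cells 449 (7.31%) were higher and 514 (8.36%) lower. Against monocyte-marker cells 438 (7.13%) were higher and 474 (7.71%) lower. The 3 comparisons share the same member cells and are given side by side, not as separate evidence. Leaving the library out of the model moved the counts against C1q-high cells to 186 and 176, and against Folr2-group cells to 274 higher. Fold changes are on the log2 scale with their standard error (SE). The genes were grouped into 17 lists with 361 genes found in the files, of which those with too few UMIs, or used to choose a set, were not tested. The count of each list is to be read beside the shares of all tested genes given above. The lists and the genes named were chosen with earlier results of these data known.

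**Figure D1:**
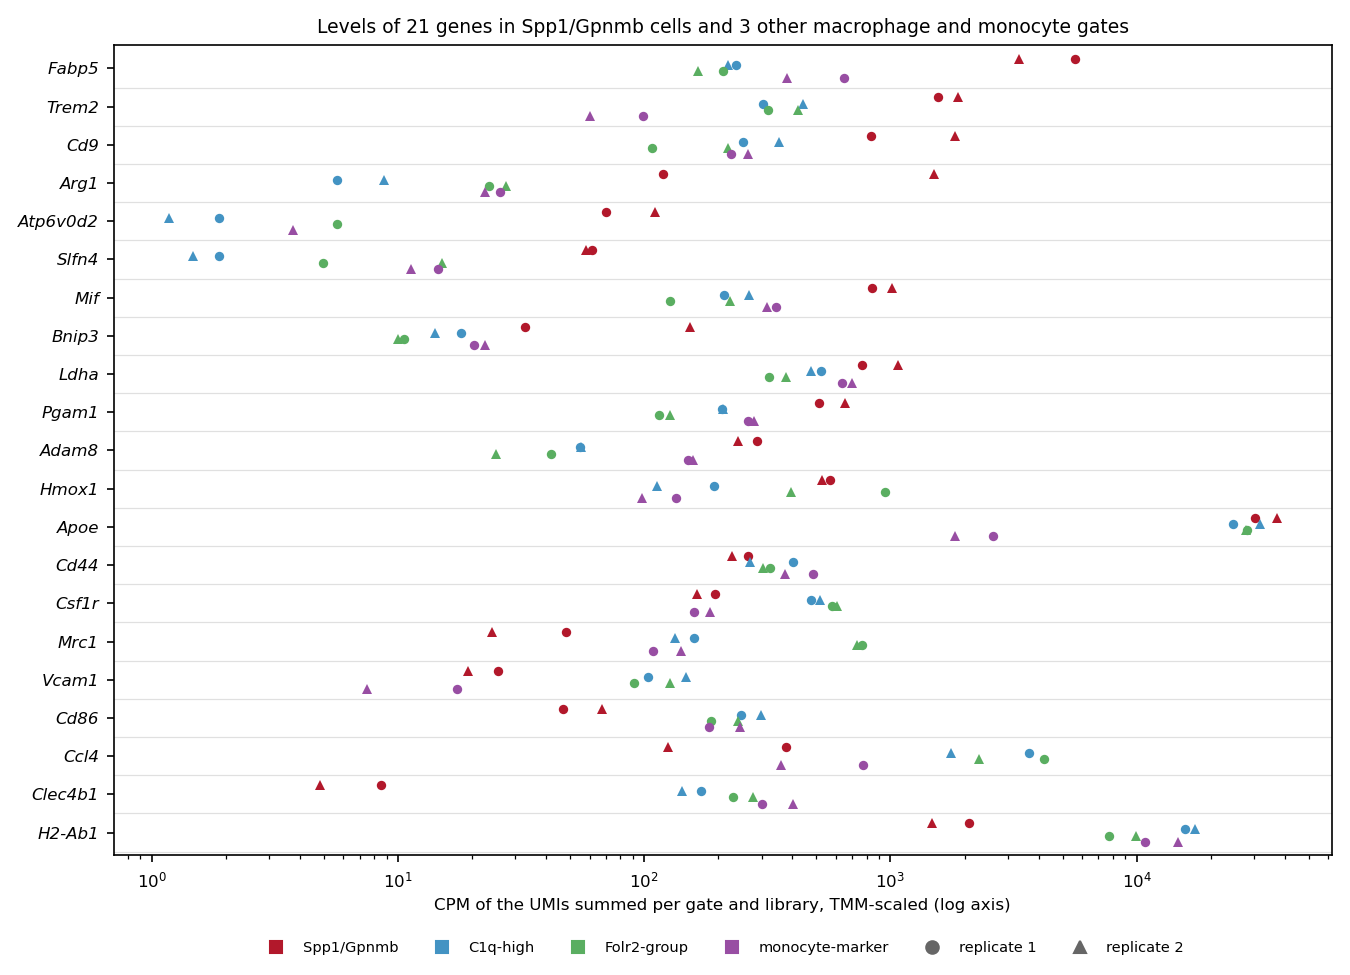
CPM (x axis, log scale) of 21 named genes in sums of Spp1/Gpnmb, C1q-high, Folr2-group and monocyte-marker cells, with a circle for replicate 1 and a triangle for replicate 2. Fabp5 and Trem2 of Spp1/Gpnmb cells lay above those of the 3 other sets in both libraries, and H2-Ab1 below; Arg1 of the members lay at 119.5 and 1508 CPM, and levels of 0 (Atp6v0d2 in Folr2-group cells of replicate 2 and in monocyte-marker cells of replicate 1) are not drawn.

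Genes of lipid uptake and carriage were higher in the members. Of 23 tested genes of the lipid list, 9 rose and none fell against C1q-high cells, and the median log2 fold change was 0.69, against -0.02 over all genes tested. Against Folr2-group cells 11 rose, and against monocyte-marker cells 14, again with none lower. The 9 were Trem2, Fabp4, Fabp5, Abca1 and Npc2, which move cholesterol, the desaturase Scd2, Hilpda of lipid droplets, Cd9 and Lgals3.

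Fabp5 (GRCm38 chromosome 3, 10012548 to 10016607, plus strand) stood at 5631 and 3343 CPM in the members of replicates 1 and 2, against 236.2 and 219.9 CPM in C1q-high cells. Both member sums lay above both sums of each other set. The log2 fold change was 4.24 (SE 0.26, edgeR adjusted p = 1.37e-07, 18.9-fold), with 4.57 in replicate 1 and 3.92 in replicate 2. Against monocyte-marker cells, at 651.0 and 379.1 CPM, it was 3.12 (SE 0.25). After thinning each cell to 2000 UMIs, 91.2% and 65% of the members had a Fabp5 UMI, against 14.7% and 16.4% of C1q-high cells and 13.3% and 5.71% of lymphocytes (median depths of 3453 and 3272 UMIs), which serve as background. A Fabp5 UMI was also found in 33.3% and 34.4% of monocyte-marker cells and in 31.5% and 37.5% of the epithelial cells left out. Unthinned, 65 of 68 and 17 of 20 members had one, and the highest member held 2.56% of its UMIs in this gene.

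Trem2 (chromosome 17, 48346401 to 48354147, plus strand) was at 1558 and 1874 CPM in the members and at 304.5 and 440.4 CPM in C1q-high cells. Both member sums lay above both C1q-high sums, and the log2 fold change was 2.21 (SE 0.21, edgeR adjusted p = 8.96e-06, 4.62-fold). It was 4.38 against monocyte-marker cells (SE 0.26), at 98.6 and 60.1 CPM. Every member had at least 1 Trem2 UMI, and after thinning 86.8% and 95% did, against 35.8% and 48.2% of C1q-high cells and 0% and 2.86% of lymphocytes. Cd9, a tetraspanin of lipid-associated macrophages, rose from 250.9 and 353.9 to 835.1 and 1826 CPM, a log2 fold change of 2.06 (SE 0.21). Fabp4, the carrier of adipocytes and macrophages, was at 78.3 and 62.6 CPM against 6.46 and 3.53 CPM, but monocyte-marker cells of replicate 1 also held 111.6 CPM.

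Other genes that are often named for lipid-loaded cells were not called against C1q-high cells. Apoe, the main carrier of cholesterol out of macrophages, was at 30369.8 and 37024 CPM in the members and at 24539 and 31680 CPM in C1q-high cells, a log2 fold change of 0.26 (SE 0.22). It was 3.95 above monocyte-marker cells (SE 0.25, edgeR adjusted p = 1.54e-07). Plin2, which coats lipid droplets, had a log2 fold change of 0.32 (SE 0.15) against C1q-high cells, Lpl, the lipase, of 0.69 (SE 0.25), and Cd36, a receptor for oxidised lipid, of -0.30 (SE 0.26). These 4 edgeR adjusted p-values ran from 0.0998 for Lpl to 0.526 for Cd36, and a miss of the threshold does not show equal levels.

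**Figure D2:**
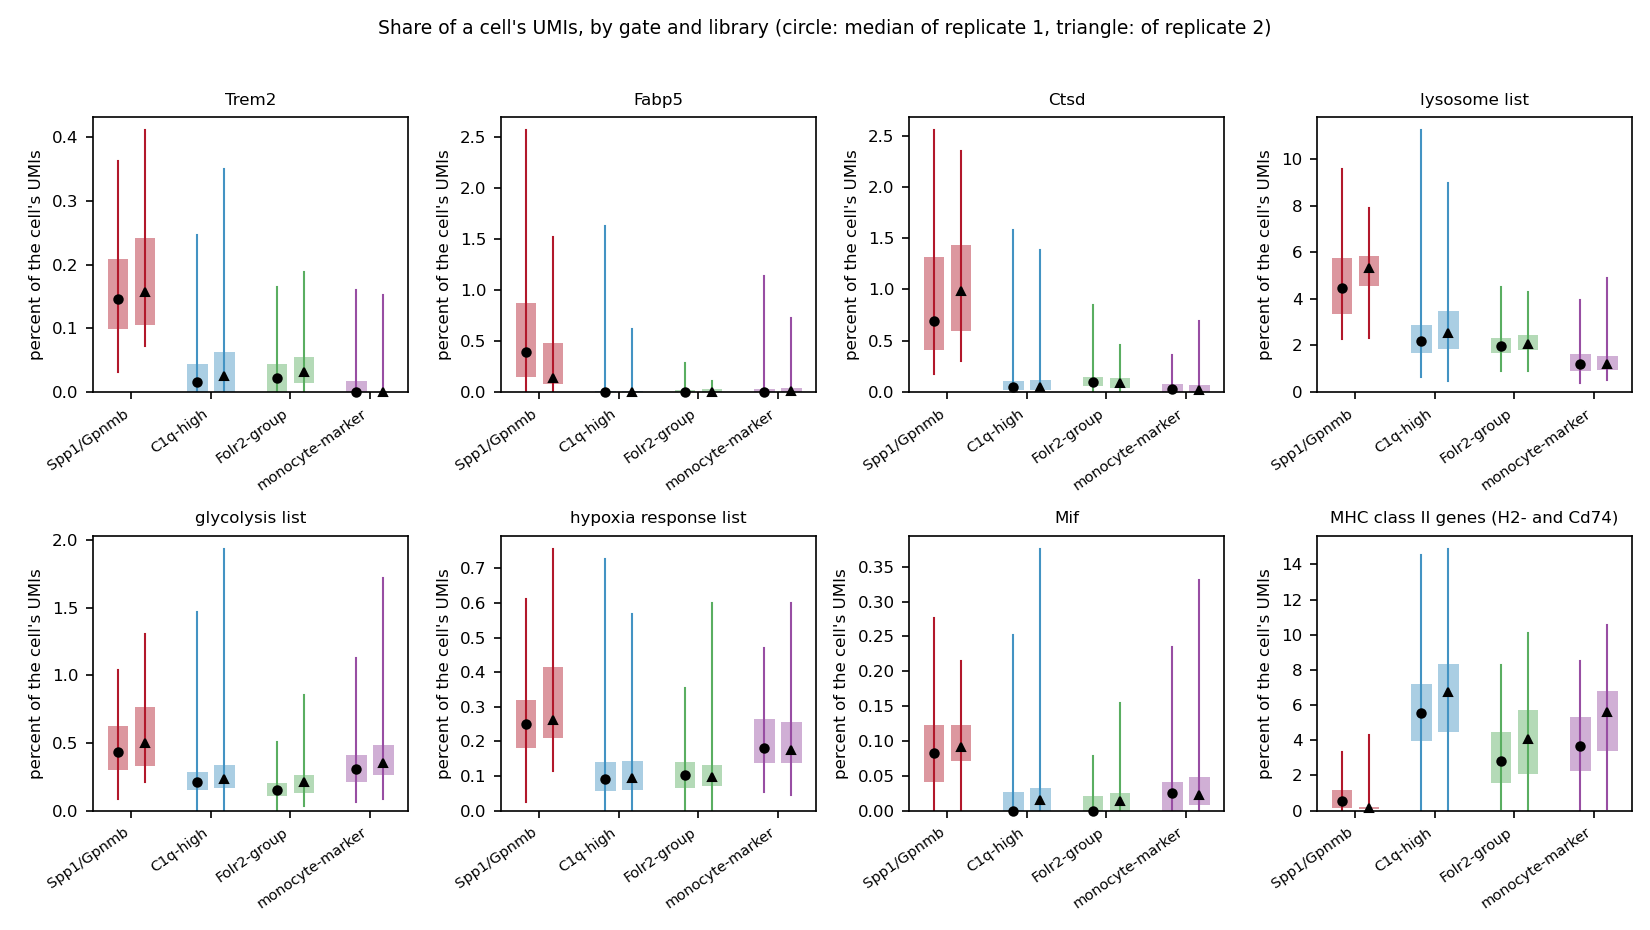
Share of each cell's UMIs (y axis, percent) held by 3 genes, 3 gene lists, Mif and MHC class II genes, per set of cells (x axis) and library; lines run from the lowest to the highest cell, boxes from the first to the third quartile, and points mark medians. The median lysosome share of the members was 4.45% and 5.32%, and their median MHC class II share was 0.519% and 0.121%.

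Genes of the lysosome were also higher. Of 28 tested, 12 rose and none fell against C1q-high cells, 15 rose against Folr2-group cells and 23 against monocyte-marker cells, with median log2 fold changes of 0.53, 0.82 and 1.62. Ctsd, the aspartic protease cathepsin D, named here for leading the cluster above, was at 9261 and 10405 CPM against 1029 and 1444 CPM in C1q-high cells. This was a log2 fold change of 2.98 (SE 0.25, edgeR adjusted p = 3.11e-06). The other cathepsins that rose were Ctsa, Ctsb, Ctsk and Ctsl, and so did Lamp1, Cd68, Hexa, Grn, Mitf, Creg1 and Atp6v0d2. Per cell, the list took more of the UMIs than the C1q-high median in 68 of 68 and 19 of 20 members.

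Atp6v0d2, a subunit of the proton pump that acidifies lysosomes, was at 69.7 and 110.8 CPM in the members and at 1.88 and 1.18 CPM in C1q-high cells, on 72 and 11 UMIs. Its log2 fold change of 5.69 (SE 0.56, edgeR adjusted p = 1.89e-05) was among the 5 largest rises. Ctsk, the collagen-cutting cathepsin K of osteoclasts, was at 22.8 and 43.4 CPM against 1.34 and 1.76 CPM, a log2 fold change of 4.26 (SE 0.69). Both genes are also osteoclast markers, but the 9 osteoclast markers as a whole summed to 324.8 and 561.3 CPM in the members and to 483.5 and 526.9 CPM in C1q-high cells. In the members 4 of the 9 were at 0 in each library. Acp5, the tartrate-resistant phosphatase, was at 203.5 and 380.6 CPM against 416.1 and 442.7 CPM.

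The letters CACGTG, which the lysosomal regulators TFEB, TFE3 and MITF can bind, were looked for on both strands in the 250 bases before the start of each gene in RefSeq (GRCm38.p6). They were in 4 of the 10 called lysosome genes with a window (Ctsa, Ctsd, Ctsl and Lamp1), and in 6.02% of all 32851 windows and 6.86% of all 27025 genes. The window of Ctsd is shown because this gene led the cluster of the members and has 2 such words, in capitals (chr7:142387828-142388077, minus strand). A match is a description of the sequence and shows no binding.
Ctsd: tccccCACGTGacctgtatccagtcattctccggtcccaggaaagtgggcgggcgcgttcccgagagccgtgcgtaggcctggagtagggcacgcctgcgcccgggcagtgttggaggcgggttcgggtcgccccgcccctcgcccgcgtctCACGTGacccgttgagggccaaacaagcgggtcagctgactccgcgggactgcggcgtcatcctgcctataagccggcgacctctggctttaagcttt

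Mitf itself was at 32.7 and 28.9 CPM in the members and at 12.9 and 12.6 CPM in C1q-high cells, a log2 fold change of 1.27 (edgeR adjusted p = 0.0351). Tfe3 was at 24.2 and 48.2 CPM against 30.7 and 31.5 CPM and was not called. Against Folr2-group cells Mitf was not called, while against monocyte-marker cells it was called higher.

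Enzymes of glycolysis were higher against C1q-high cells, 9 of 16 tested with none lower and a median log2 fold change of 0.98. The 9 were Aldoa, Tpi1, Gapdh, Pgam1, Eno1, Pkm, Ldha, the lactate exporter Slc16a3 and Pdk1, which holds pyruvate back from mitochondria. Against Folr2-group cells 12 rose. Against monocyte-marker cells 6 rose and Pfkp fell. Per cell, in which the list took a median of 0.436% and 0.502% of UMIs, 61 of 68 and 18 of 20 members lay above the C1q-high median of this list.

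Pgam1, phosphoglycerate mutase, was at 512.2 and 655.1 CPM in the members and at 206.8 and 209.0 CPM in C1q-high cells, a log2 fold change of 1.47 (SE 0.15, edgeR adjusted p = 1.36e-05). Ldha, which turns pyruvate into lactate, was at 764.0 and 1074 CPM against 523.4 and 476.8 CPM, a log2 fold change of 0.84 (SE 0.15, edgeR adjusted p = 0.0021). Pdk1 rested on 21 UMIs in the members, at 19.9 and 33.7 CPM against 6.19 and 6.47 CPM. Slc2a1, the glucose transporter GLUT1, was at 46.95 and 91.5 CPM against 46.5 and 47.6 CPM. Its log2 fold change was 0.38 (SE 0.29, edgeR adjusted p = 0.459), with 0.01 in replicate 1 and 0.92 in replicate 2.

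The hypoxia list held 16 tested genes. Of these 8 rose against C1q-high cells, 12 against Folr2-group cells and 3 against monocyte-marker cells, with none lower. The median log2 fold changes were 0.98, 1.12 and 0.46. The 8 were Bnip3, Bnip3l, Ero1l, P4ha1, Fam162a, Mif, Hif1a and Anxa2, and the 3 against monocyte-marker cells were Bnip3l, P4ha1 and Mif. Per cell, 64 of 68 and 20 of 20 members lay above the C1q-high median of the list; medians were 0.252% and 0.263% of UMIs in the members, 0.0923% and 0.0951% in C1q-high cells and 0.181% and 0.177% in monocyte-marker cells. Oxygen was not measured, and whether the smaller count against monocyte-marker cells differs from the others was not tested. Leaving the library out of the model gave 6 in place of 12 against Folr2-group cells.

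Mif, a secreted cytokine and target of HIF-1, was at 839.4 and 1016 CPM in the members, at 211.4 and 266.6 CPM in C1q-high cells and at 343.6 and 315.3 CPM in monocyte-marker cells. Both member sums lay above all of these, and the log2 fold change against C1q-high cells was 1.95 (SE 0.24, edgeR adjusted p = 0.00011). Bnip3, which drives removal of mitochondria, was at 32.7 CPM in replicate 1 and 154.1 in replicate 2, against 18.0 and 14.1 CPM in C1q-high cells. Its log2 fold change was 2.10 (SE 0.46, edgeR adjusted p = 0.00735), with 0.81 in replicate 1 and 3.30 in replicate 2. After thinning, 2.94% of members of replicate 1 had a Bnip3 UMI against 4.07% of C1q-high cells, and 15% against 2.90% in replicate 2; 1 of 15 and none of 35 lymphocytes had one, so that no change is read from these shares. Unthinned, 22.1% and 40% of members had a Bnip3 UMI against 7.99% and 7.87% of C1q-high cells. The size of this rise rests on replicate 2. Vegfa, the main factor of vessel growth, was at 130.9 and 183.1 CPM against 75.04 and 81.1 CPM and was not called (log2 fold change 0.95, SE 0.34, edgeR adjusted p = 0.0856).

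The core letters of the HIF-1 site, ACGTG or GCGTG, were searched on both strands of the same 250-base windows. They were in 13 of the 15 genes with a window among the glycolysis and hypoxia genes called higher than in C1q-high cells, all but Mif and Tpi1. These short words were in 38.6% of all windows and 41.5% of all genes. The windows of Bnip3 (chr7:138909507-138909756, minus strand) and Ldha (chr7:46845554-46845803, plus strand) are shown for having 5 matches each, in capitals. Since the word CACGTG holds the core on both strands, it counts for 2, and it overlaps the lysosomal word searched above.
Bnip3: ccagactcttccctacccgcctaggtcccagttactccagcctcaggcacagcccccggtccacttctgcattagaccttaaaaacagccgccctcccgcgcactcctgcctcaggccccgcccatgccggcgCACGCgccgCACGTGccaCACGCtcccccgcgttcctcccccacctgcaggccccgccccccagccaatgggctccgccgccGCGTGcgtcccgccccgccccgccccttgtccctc
Ldha: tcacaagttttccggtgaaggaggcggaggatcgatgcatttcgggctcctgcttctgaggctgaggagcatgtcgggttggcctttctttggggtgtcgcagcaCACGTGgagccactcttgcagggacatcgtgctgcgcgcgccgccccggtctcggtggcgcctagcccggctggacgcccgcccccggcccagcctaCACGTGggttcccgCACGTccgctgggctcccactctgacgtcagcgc

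Antigen presentation by MHC class II was the clearest group of lower genes. Of 10 tested genes, 9 fell against C1q-high cells, 6 against Folr2-group cells and 9 against monocyte-marker cells, with none higher and median log2 fold changes of -2.75, -1.76 and -2.80. Among the 9, H2-Ob, H2-Oa and H2-DMb2 rested on only 2, 3 and 5 UMIs in the members. These genes were not called against Folr2-group cells. H2-Ab1, the beta chain of I-A, was at 2087 and 1479 CPM in the members, against 15782 and 17313 CPM in C1q-high cells, 7729 and 9938 in Folr2-group cells and 10828 and 14724 in monocyte-marker cells. No member sum reached any of the others. The log2 fold change was -3.17 against C1q-high cells (SE 0.18, edgeR adjusted p = 1.36e-07, 9.03-fold lower). Cd74, the invariant chain, had -3.41 (SE 0.20) and H2-Eb1 had -3.30 (SE 0.21). Ifi30, a reductase of the antigen-processing compartment, was at 566.3 and 732.2 CPM against 634.0 and 712.9 CPM and was not called.

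In single cells, H2- class II genes and Cd74 took a median of 0.519% of UMIs in members of replicate 1, from 0.0277% to 3.33%, and 0.121% in replicate 2, from 0.0527% to 4.30%. C1q-high cells had medians of 5.57% and 6.73%. None of 68 and none of 20 members lay above the median of C1q-high cells of their library. By the estimate above, which may be too low, free RNA would add 235.1 and 466.6 CPM of these genes to the members. Their measured sums were 7810 and 5126 CPM. Cd86, a costimulatory ligand for T cells, was also lower, at 46.95 and 67.4 CPM against 246.6 and 296.9 CPM (log2 fold change -2.29, SE 0.20, edgeR adjusted p = 4.64e-06). Of 16 genes of checkpoints and costimulation, 5 fell against C1q-high cells (Cd86, Havcr2, Vsir, Cd83 and Cd300a) and 2 rose, Cd200r1 and Cd300lf. Cd274, which encodes PD-L1, had a log2 fold change of 1.21 (SE 0.37, edgeR adjusted p = 0.0505) and missed the threshold.

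**Figure D3:**
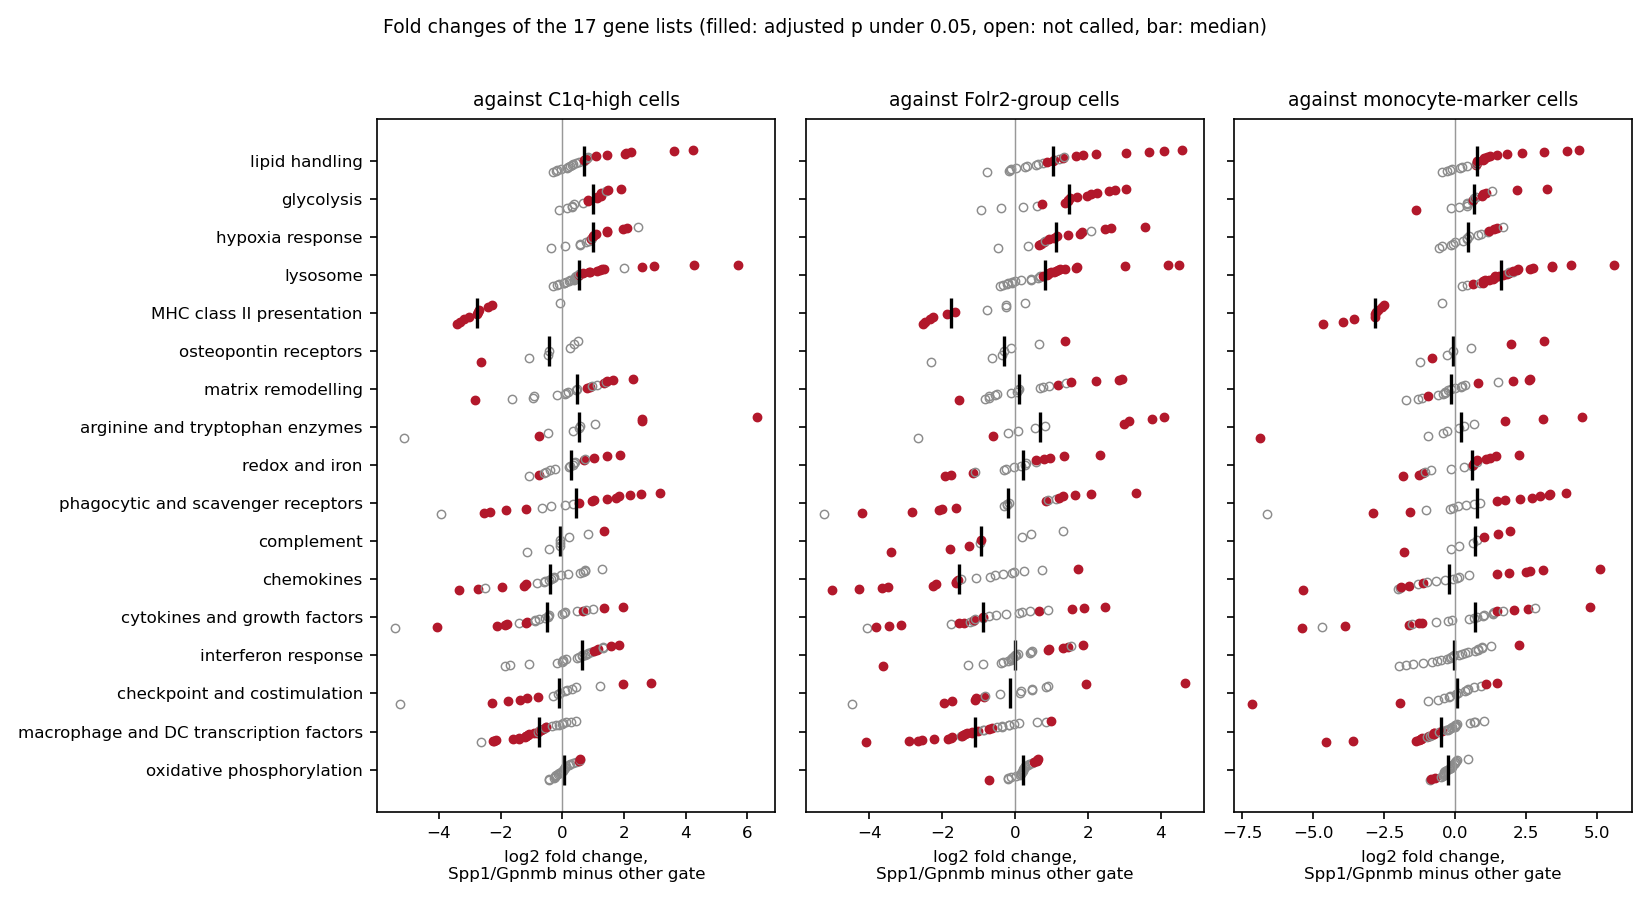
Log2 fold change (x axis) of Spp1/Gpnmb cells minus each other set for the tested genes of the 17 lists (rows), filled where the adjusted p was under 0.05, with the median as a bar. The class II list lies to the left in all 3 comparisons (medians -2.75, -1.76 and -2.80) and the lysosome list to the right (0.53, 0.82 and 1.62).

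Arg1 (chromosome 10, 24915221 to 24927484, minus strand), arginase 1, which splits arginine and marks suppressive tumour macrophages, showed the largest fold against C1q-high cells among the genes of the naming rule, and its level differed between the libraries. It was at 119.5 CPM in the members of replicate 1 and 1508 in replicate 2, against 5.65 and 8.82 CPM in C1q-high cells. The log2 fold change was 6.31 (SE 0.61, edgeR adjusted p = 9.97e-06), with 4.05 in replicate 1 and 7.17 in replicate 2. Only 22 of 68 and 15 of 20 members had an Arg1 UMI, and the 3 richest cells held 46.4% and 50.5% of the Arg1 UMIs. After thinning, 13.2% and 55% of members had one, against 0.727% and 0.828% of C1q-high cells, and none of 15 and 35 lymphocytes did. Arg2 and the arginine transporter Slc7a2 rose as well, with log2 fold changes of 2.59 (SE 0.37) and 2.58 (SE 0.51), while Sat1, of polyamine breakdown, fell by 0.77 on the log2 scale. Against Folr2-group and monocyte-marker cells Arg1, Arg2 and Slc7a2 were called higher too.

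Saa3, an acute-phase protein, was at 140.9 and 1349 CPM in the members and at 2.69 and 19.1 CPM in C1q-high cells (log2 fold change 5.94, SE 0.39, edgeR adjusted p = 2.84e-07). Its UMIs came from few cells, 13 of 68 and 6 of 20, and 3 cells of replicate 2 held 98.2% of that library's Saa3 UMIs. Arg1 and Saa3 were found together in 2 members of replicate 1 and 5 of replicate 2. Most members had no Saa3 UMI, so its fold describes a few cells. Slfn4, of the Schlafen family, was more even between libraries, at 61.2 and 57.8 CPM against 1.88 and 1.47 CPM (log2 fold change 5.06, SE 0.53). Zranb3, a DNA helicase gene, was at 66.9 and 72.3 CPM against 2.96 and 1.47 CPM (log2 fold change 4.85, SE 0.49). How reads of overlapping or near-identical genes were assigned is not given in the sources used here.

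Several receptors of other macrophage states were lower. Csf1r, the receptor for the macrophage growth factor CSF1, was at 193.5 and 163.8 CPM against 476.1 and 520.0 CPM in C1q-high cells (log2 fold change -1.45, SE 0.24, edgeR adjusted p = 0.00128). Mrc1, the mannose receptor CD206, was at 48.4 and 24.1 CPM against 159.2 and 133.8 CPM, and against 764.4 and 735.0 CPM in Folr2-group cells (log2 fold changes -1.84, SE 0.29, and -4.20, SE 0.27). Vcam1, an adhesion molecule, fell by 2.36 on the log2 scale (SE 0.45). Itgax, which encodes the antigen used to pick the cells, was at 116.7 and 168.6 CPM against 139.3 and 160.2 CPM in C1q-high cells and was not called there. It was higher than in Folr2-group cells, at 36.2 and 22.6 CPM (log2 fold change 2.03, SE 0.30). Cx3cr1, the fractalkine receptor, was at 69.7 and 149.3 CPM against 131.5 and 162.6 CPM.

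The phagocytic and scavenger receptors split. Of 18 tested, 9 rose and 4 fell against C1q-high cells. The higher ones were Siglec1, Olr1, Msr1, Clec4d, Mfge8, Mertk, Clec4e, Gas6 and Itgb2, and the lower ones Mrc1, Axl, Clec4a2 and Vcam1. Without the library in the model 5 were higher and 3 lower. Olr1, a receptor for oxidised LDL, was at 38.4 and 67.4 CPM against 5.92 and 12.1 CPM (log2 fold change 2.55, SE 0.35), and Siglec1, the sialoadhesin CD169, at 29.9 and 43.4 CPM against 4.30 and 3.23 CPM (3.15, SE 0.51). Against Folr2-group cells Siglec1 was not called, at 16.3 and 22.6 CPM there. Of the complement genes only Itgam, a subunit of complement receptor 3, rose, 1 of 8, at 207.7 and 269.8 CPM against 74.2 and 112.0 CPM. With 5.34% of all tested genes higher, this count is not read as a result about complement.

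The largest falls by the naming rule were St3gal6, Clec4b1, Il1r2, Tmem176a and Tmem176b. Tmem176a and Tmem176b encode related cation channels of the inner membranes of dendritic cells and macrophages. Tmem176a was at 32.7 and 72.3 CPM in the members, against 670.8 and 822.8 CPM in C1q-high cells and 712.7 and 825.3 CPM in Folr2-group cells. Tmem176b was at 64.0 and 81.9 CPM, against 770.6 and 934.8 CPM in C1q-high cells. The log2 fold changes were -4.02 (SE 0.38) and -3.55 (SE 0.32), and both genes were also lower than in monocyte-marker cells. Clec4b1, a C-type lectin, gave 7 UMIs in all members, at 8.54 and 4.82 CPM against 169.4 and 142.3 CPM (log2 fold change -4.30, SE 0.35). St3gal6, a sialyltransferase, gave 1 UMI against 404 in C1q-high cells, a pooled ratio of 0.0199 with a counting interval of 0.000504 to 0.112.

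Some inflammatory mediators were lower than in C1q-high cells, while most tested were not called. Of 20 chemokines none rose and 5 fell (Ccl3, Ccl4, Cxcl2, Cxcl9 and Cxcl16), although 1 or 2 were called higher under 6 alternatives. Ccl4, which attracts lymphocytes and monocytes, was at 377.0 and 125.2 CPM against 3661 and 1763 CPM (log2 fold change -3.36, SE 0.28, edgeR adjusted p = 3.33e-06). Of 24 cytokines and growth factors, 6 fell (Il1b, Il1r2, Il10, Tnf, Gdf15 and Tnfsf13b) and 3 rose (Mif, Il18bp and Igf1), against 3 and 1 without the library in the model. Il1b, the inflammasome cytokine, was at 560.6 and 2269 CPM against 1552 and 4275 CPM (log2 fold change -1.17, SE 0.18). The members of replicate 2 lay above the C1q-high cells of replicate 1, so that the sets were apart only within each library. Without the library in the model the call was lost, as were those of Cxcl9, Hes1, Itga9, Mmp13, Igfbp4 and Ndufb8. Il1r2, the decoy receptor of interleukin 1, was at 5.69 and 4.82 CPM against 74.5 and 157.9 CPM.

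Against the other sets the mediators differed in direction. Ccl8, a monocyte attractant, was at 848.0 and 284.2 CPM in the members and at 16298 and 11857 CPM in Folr2-group cells (log2 fold change -5.03, SE 0.60), one of the 3 largest falls there with Clec10a and Igfbp4. Against monocyte-marker cells, at 200.1 and 18.8 CPM, it was higher (2.51, SE 0.63, edgeR adjusted p = 0.0147). The largest falls against monocyte-marker cells, Ifitm6, Ifitm1 and Ccr7, each rested on 2 or fewer UMIs in the members. The largest rises there were Atp6v0d2, Saa3 and Tmem119, with Tmem119, a marker of microglia, at 101.0 and 134.9 CPM against 7.25 and 0 CPM. Against Folr2-group cells they were Cd300lf, Trem1 and Zranb3. Trem1, which amplifies inflammatory signals, was at 54.1 and 72.3 CPM and rested on 1 UMI in Folr2-group cells, a pooled ratio of 103 with a counting interval of 17.8 to 4156.

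Among the 30 tested genes of the transcription factor list, none rose and 17 fell against C1q-high cells, and the median log2 fold change was -0.77. The factors Mitf, Hif1a and Irf7, placed in other lists, were called higher. The 17 included the immediate early genes Fos, Jun, Junb, Egr1, Atf3 and Nr4a1, and Spi1, which directs myeloid development. Fos was at 448.2 and 370.9 CPM in the members and at 1646 and 877.5 CPM in C1q-high cells (log2 fold change -1.60, SE 0.18). Batf3, best known from type 1 dendritic cells, was at 9.96 and 4.82 CPM against 46.5 and 38.2 CPM (-2.26, SE 0.40). Against Folr2-group cells 17 fell and Runx3 rose, and against monocyte-marker cells 12 fell. Without the library in the model 7 fell against C1q-high cells.

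Of 19 matrix genes tested, 6 rose against C1q-high cells and Mmp13 fell. Adam8, a cell surface protease, was at 286.0 and 240.9 CPM against 54.9 and 55.6 CPM (log2 fold change 2.29, SE 0.19, edgeR adjusted p = 2.78e-06). The others were Timp2, Thbs1, Sdc1, Mmp19 and Sdc3, and the count higher was 3 with DESeq2 and 2 without the library in the model. Mmp12, macrophage elastase, was at 15.7 CPM in replicate 1 and 159.0 in replicate 2, against 178.3 and 169.6 CPM, and was not called (edgeR adjusted p = 0.0653). Among the receptors of osteopontin, Cd44, the best known of them, was at 263.2 and 226.4 CPM against 400.5 and 269.0 CPM (log2 fold change -0.45, SE 0.16, edgeR adjusted p = 0.095), and of 7 receptor genes only Itga9 was called, lower, on 3 UMIs in the members (pooled ratio 0.176, counting interval 0.0359 to 0.526). Against Folr2-group cells Itgb5 was called higher, and against monocyte-marker cells Itgav and Itgb5 higher and Cd44 lower.

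Hmox1, heme oxygenase 1, rose from 192.0 and 112.9 to 570.5 and 529.9 CPM (log2 fold change 1.86, SE 0.23, edgeR adjusted p = 8.7e-05), but Folr2-group cells held 951.6 and 393.8 CPM. Prdx6, a peroxidase that repairs oxidised lipid, was at 273.2 and 322.7 CPM against 104.6 and 107.9 CPM (1.46, SE 0.17). Of 16 genes of redox and iron, 4 rose (Hmox1, Prdx6, Txn1 and Ftl1) and Mt1 fell. Of 23 interferon-responsive genes 5 rose, Ifitm3, Irf7, Bst2, Usp18 and Zbp1, and without the library in the model 2 did. Bst2, tetherin, was at 1649 and 1917 CPM against 592.0 and 593.8 CPM (1.58, SE 0.14), and against monocyte-marker cells this gene of the list was called, with 22 not called. Of 22 nuclear genes of oxidative phosphorylation 2 rose, Cox7a2 and Ndufb8, with log2 fold changes of 0.59 and 0.52, and the median was 0.04. Over all 6146 tested genes 5.34% rose and 6.1% fell against C1q-high cells. The 2 rises of this list and the fall of Mt1 are therefore not read as results about their lists. The call of Ndufb8 was lost in 11 of 14 alternatives.

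As a description of cells on both sides of the rule's limit, the members and the 3 other sets were split into cells with Spp1 under 0.1%, from 0.1% to 0.4%, from 0.4% to 2%, and of 2% or more of UMIs. In replicate 1 these bands held 999, 26, 46 and 36 cells, and in replicate 2 566, 26, 14 and 18. Spp1 chose the members, who made up 34 of 46 and 34 of 36 cells of the upper bands in replicate 1 and 6 of 14 and 14 of 18 in replicate 2, so these values largely repeat the contrast of members with other sets. Fabp5 went from 196.7 to 1424, 3864 and 7176 CPM in replicate 1, and from 171.8 to 1009, 1188 and 3574 in replicate 2. Trem2 went from 260.0 to 640.7, 1297 and 1767 CPM in replicate 1 and from 354.1 to 899.0, 1028 and 1798 in replicate 2. The median class II share went down from 4.79% to 0.374% and from 6.404% to 0.143%. Mif levelled off from the third band on, at 928.5 and 806.2 CPM in replicate 1 and at 882.0 and 924.0 in replicate 2. Bnip3 went down from the third to the fourth band in replicate 1, from 38.8 to 27.5 CPM, and up in replicate 2, from 43.7 to 171.5 CPM. The top bands of replicate 2 have under 20 cells, and the median depth rose from 5072 to 9158 UMIs over the bands of replicate 1.

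**Figure D4:**
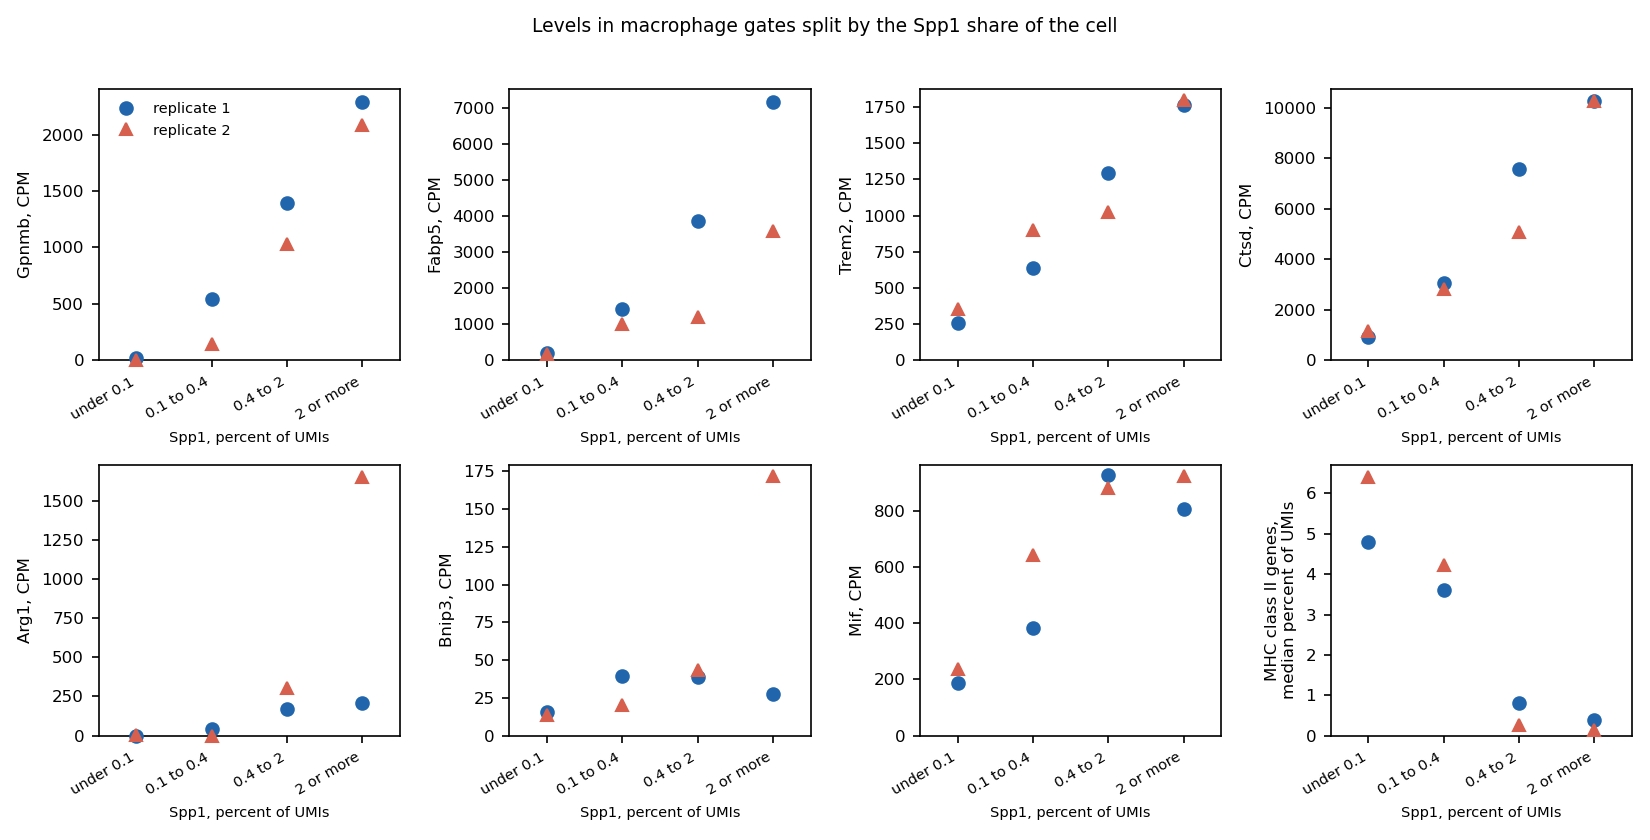
CPM of 7 genes and the median MHC class II share (y axes) in macrophage and monocyte sets split by the Spp1 share of the cell (x axis, percent of UMIs), one point per library. Fabp5, Trem2 and Ctsd are highest in the band of 2% or more in both libraries, the class II share is lowest there, and Arg1 (209.1 and 1649 CPM in that band) and Bnip3 differ between libraries.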

How the data were processed

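UMI counts per gene and barcode were used as the authors deposited them, 27998 genes and 737280 barcodes in each of 2 libraries. Per the labels' protocols the cells were captured with the 10x Chromium 3' v2 chemistry, and per the submitters' processing notes the counts came from Cell Ranger 2.2.0 on mm10. Whether the authors filtered cells is not given in the sources used here, and the files list every barcode.

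Barcodes with at least 2000 UMIs and at most 10% of them mitochondrial were kept. Each cell went to the first rule it met, in this order: Spp1/Gpnmb; left out as epithelial, cycling, lymphocyte, neutrophil or fibroblast; cDC1-marker; cDC2-marker; Folr2-group; C1q-high; monocyte-marker. Monocyte-marker cells also had at least 2 UMIs of Fcgr1, Adgre1 and Cd14. Counts were summed over 6 of these sets in each library, which gave 12 sums. edgeR 4.0.16 (R 4.3.3) filtered the genes (filterByExpr, 6184 passed, 6146 tested), scaled them (TMM) and fitted the quasi-likelihood model with library as a block, because the sets of a library come from 1 capture (5 residual degrees of freedom). Spread came from all 6 sets. p-values were adjusted by Benjamini and Hochberg over all tested genes. The fit was also run on simulated counts, from which no support for the results is drawn.

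Clusters were made with scanpy 1.11.5 and leidenalg 0.10.2 (2000 variable genes, 30 components, 20 neighbours, resolution 1), without the genes of the rule. Doublets were called by Scrublet's top scores only as an alternative. Gene positions are from GENCODE M21, and promoter sequences from RefSeq, GRCm38.p6. Intervals are exact binomial or counting intervals at 95% and cover counting error only.

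Members and lists were chosen with earlier results of these data known. Genes named by rule were up to 2 of each list whose called change was largest and went 1 way in each library, the 5 genes that rose and the 5 that fell most with at least 50 CPM in the higher set, the 3 largest in the other comparisons, and 25 genes in any case. Other genes with values (Acp5, Ccr2, Cd68, Chil3, Ctsd, Fos, Hp, Ifi30, Ly6c2, Lyz2, Mitf and Tfe3) were chosen after their values were seen. Alternatives were DESeq2 1.42.0, no filter, no replicate block, fewer sets and other limits of the rules. Of the 364 genes written into the lists, 361 were matched.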

Additional observations from a re-analysis of the deposited data

How the results depend on the processing

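The model without the replicate block, which drops the pairing of sets within a library, called 186 genes higher and 176 lower against C1q-high cells and 274 higher against Folr2-group cells. DESeq2 called 226 lower against C1q-high cells, and testing without a filter on low counts called 599 lower. Without that filter the median log2 fold change of all genes moved to -0.24, and 35.9% of the calls were higher against 46.7% with it. Over all settings the other counts ranged from 344 to 614 (lower, Folr2-group), 336 to 489 (higher, monocyte-marker) and 321 to 613 (lower, monocyte-marker). The share of Spp1/Gpnmb cells ranged from 3.06% to 3.78% in replicate 1 and from 1.40% to 1.89% in replicate 2. Limits of more UMIs, 5% mitochondrial UMIs or 4 Gpnmb UMIs left 19, 18 and 17 members in replicate 2, and were fitted with a minimum of 10 cells per sum, chosen after seeing the data.

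No called named gene turned its direction among 952 values per comparison, or with 1 library alone. For genes named by their change, the 1-library outcome was fixed in advance in the comparison that named them. The naming rule took only genes whose change went 1 way in each library, so no support is drawn from it. With 1 library, 32, 31 and 25 of 136 values against C1q-high, Folr2-group and monocyte-marker cells moved by more than the spread between the libraries. That spread comes from the same 2 libraries, so these counts cannot show how stable the values are. Against C1q-high cells 23 values lost the call and 30 gained it. Ndufb8 lost it in 11 of 14 settings, Mmp13 in 4, and Itga9 and Igfbp4 in 2 each. Against monocyte-marker cells St3gal6 lost it in 8 settings. The causes were not tested. Against C1q-high cells the list counts ran from 8 to 10 (lipid), 6 to 10 (glycolysis), 6 to 12 (hypoxia), 9 to 14 (lysosome) and 7 to 9 (MHC class II, lower); without the replicate block 7 transcription factors were lower, 2 interferon-responsive genes and 5 phagocytic receptors higher, and 3 chemokines lower. Leaving out a library leaves no residual degrees of freedom, so the fold changes per library given for Arg1, Bnip3, Fabp5 and Slc2a1 carry no test. The 20 members of replicate 2 limit the precision of its values.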

Other observations

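The Spp1/Gpnmb cells of the 2 libraries were alike in most genes and apart in a few, chosen here after their values were seen. Of 662 genes with 200 CPM or more in the members, 27 differed over 2-fold between the libraries, and the median absolute log2 difference was 0.26. Arg1 (12.1-fold) and Saa3 (9.28-fold) differed most towards replicate 2. Cxcl1, which attracts neutrophils, was at 244.7 CPM in replicate 1 and 1257 in replicate 2, and Ptgs2, the inducible cyclooxygenase, at 52.6 and 231.2 CPM. In C1q-high cells Cxcl1 was at 826.5 and 683.5 CPM, so that the difference had another sign there, while Ptgs2 was at 52.2 and 109.6 CPM. Fn1, fibronectin, was at 204.9 and 611.8 CPM in the members and at 118.3 and 152.0 CPM in C1q-high cells.

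Other genes were higher in the members of replicate 1, among them the chemokines Ccl3 (261.8 and 81.9 CPM), Ccl4 (377.0 and 125.2 CPM) and Ccl8 (848.0 and 284.2 CPM). In C1q-high cells these chemokines were also higher in replicate 1, so the direction was not particular to the members. There Ccl3 was at 910.5 and 577.3 CPM, Ccl4 at 3661 and 1763 CPM, and Ccl8 at 868.8 and 202.2 CPM. Retnla, a secreted protein of alternatively activated macrophages, was at 297.4 and 33.7 CPM, and C1q-high cells held 2539 and 1186 CPM. Mdm2, which restrains p53, was at 246.1 and 62.6 CPM in the members and at 184.2 and 111.1 CPM in C1q-high cells. Pdpn, podoplanin, separated the sets in both libraries, at 152.2 and 390.2 CPM in the members against 16.1 and 28.5 CPM in C1q-high cells. With 1 sum per library these differences between libraries have no test.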
